A study of Mus musculus with 8 samples.

Results

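Plac8, Hp, Chi3l3, Mgst1, Lyz2, Fn1, Vcan and Cd177 are grouped here as 8 effector genes of Ly-6C-high monocytes. These cells are the inflammatory subset of mouse blood monocytes. The genes, and the gene lists used below, were chosen with earlier results of these data known. Probes were then taken by name and not by any measured value. Every probe was taken whose gene name in the scanner files was one of these symbols or an older form of it (Lyzs for Lyz2, Cspg2 for Vcan). The rule found 16 of the 41174 probes on the array, for all 8 genes; 4 of the 8 are among the 17819 genes that could be tested. The series measured RNA of Ly-6C-high monocytes sorted from blood and from spleen of healthy, untreated, chow-fed C57BL/6 female mice aged 8 to 12 weeks, to compare monocytes held in the spleen with those in circulation. Each of the 8 samples, a blood and a spleen sample of each of 4 mice, held 1000 cells that stained strongly for CD11b and Ly-6C and weakly for CD90, B220, CD49b, NK1.1, Ly-6G, I-Ab, CD11c and the macrophage antigen that Adgre1 encodes. RNA with an integrity number of at least 8 was amplified from 5 ng and hybridized in 1 colour to Agilent arrays.

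Ly-6C-high monocytes leave the bone marrow, circulate and enter inflamed tissue, where they kill microbes and become macrophages. The 8 genes serve different steps of that work. Lyz2 encodes lysozyme, which cuts the peptidoglycan of bacterial cell walls, and Chi3l3 encodes a secreted chitinase-like lectin without chitinase activity. Hp encodes haptoglobin, which binds free haemoglobin. Plac8 encodes a small cysteine-rich protein that phagocytes of mice need for efficient killing of bacteria, and Mgst1 a membrane-bound glutathione transferase that detoxifies lipid peroxides. Fn1 and Vcan encode the matrix molecules fibronectin and versican, and Cd177 a surface glycoprotein that on human neutrophils binds PECAM1 and holds proteinase 3. Several of the 8, among them Lyz2, Chi3l3, Hp and Cd177, are also expressed by neutrophils.

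The probes are oligonucleotides of 60 bases, and their positions are those the scanner files give, in build mm7 of the mouse genome. Exons and introns were not annotated here. The 3 Fn1 probes lie at separate places along the minus strand of chromosome 1, at chr1:71869155-71869913, chr1:71832689-71834926 and chr1:71839394-71839453. Probes 1 and 2 cover 759 and 2238 bases of the genome and so join separate blocks of it. They are printed 5′ to 3′ because they measured fibronectin RNA at separate places.
Fn1 probe 1: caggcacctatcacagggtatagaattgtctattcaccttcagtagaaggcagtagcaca
Fn1 probe 2: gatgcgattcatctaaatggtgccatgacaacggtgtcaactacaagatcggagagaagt
Fn1 probe 3: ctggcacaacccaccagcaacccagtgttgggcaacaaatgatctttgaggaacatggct

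The 5 Vcan probes lie on the minus strand of chromosome 13. In descending brightness they are at chr13:86784841-86784900, chr13:86800035-86805889, chr13:86731633-86731692, chr13:86808632-86808691 and chr13:86785974-86786033, and they are called Vcan probes 1 to 5 here. The fourth was designed on a cDNA clone of 9-day embryos that its own description calls unclassifiable, so it is named Vcan by the array's design alone. Probes 2 and 3 are printed because they gave the smallest versican differences.
Vcan probe 2: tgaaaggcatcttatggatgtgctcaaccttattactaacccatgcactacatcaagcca
Vcan probe 3: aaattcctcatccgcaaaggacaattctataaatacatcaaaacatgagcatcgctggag

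The probes of the other genes were at chr5:99768632-99768691 for Plac8, chr8:108175404-108175463 for Hp, chr3:105965855-105965914 for Chi3l3 and chr7:21534728-21539438 for Cd177, all on the minus strand. The 2 Lyz2 probes were at chr10:116785279-116785338 and chr10:116790004-116790063 on the minus strand, and the 2 Mgst1 probes at chr6:138200932-138200991 and chr6:138201135-138201194 on the plus strand. Shown here are those that stand for the haemoglobin-binding, surface, detoxifying and antimicrobial members.
Hp probe: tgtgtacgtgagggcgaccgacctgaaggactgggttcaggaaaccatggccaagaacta
Cd177 probe: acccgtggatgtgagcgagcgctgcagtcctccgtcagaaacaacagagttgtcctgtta
Mgst1 probe 1: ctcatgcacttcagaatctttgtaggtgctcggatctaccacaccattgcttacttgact
Lyz2 probe 2: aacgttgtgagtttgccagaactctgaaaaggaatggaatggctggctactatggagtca

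All values are log2 values of the authors' table unless another source is named, and all differences are spleen minus blood. The scanner files labelled blood 1, blood 2 and blood 3 hold other arrays than the columns of the table for those samples: their ranks correlated by 0.842 to 0.872 (Spearman) with their own column, against 1 after rounding for the other 5. The members separated these files from the others. In scanner signal scaled to the 75th percentile, 14 of the 16 probes were lower in all 3 files than in any of the other 5. Of the 29443 probes that the scanner software found well above background on at least 4 arrays, 5.51% were. That set lacks Vcan probes 4 and 5, and a probe can enter it through the 5 files alone. Vcan probe 1 was between 1.77 and 3.64 in the 3 files and between 8.70 and 10.49 in the other 5, and Chi3l3 was between 10.33 and 12.01 and between 15.62 and 16.82. The median gap between the 5 files and the 3 was 3.16 over the 16 probes and -0.09 over all probes. The table's own columns for blood 1, blood 2 and blood 3 did not show this, as Vcan probe 1 was 9.65, 8.85 and 10.21 there and 10.50 in blood 4. In the sort check, the brighter Itgam probe (CD11b) averaged 12.11 in both tissues and the tested Ly6c1 probe (Ly-6C) differed by -0.33 ± 0.28 (SE), while Thy1 (CD90) was below the background level of 6.8 on 7 of 8 arrays with each of its probes. Other probes of the sort antigens were less alike: the other Itgam probe differed by -0.33 ± 0.25 (SE), and the other Ly6c1 probe, with 2 values per tissue and no test, by -0.92. Itgax, which encodes CD11c and was selected against, was 1.80 ± 0.48 and 1.28 ± 0.53 (SE) higher on average in spleen with its 2 probes (adjusted p = 0.613 and 0.847), without overlap for the first. The brightest H2-Ab1 probe, for a chain of I-Ab, was at 12.25 to 14.08, and the 4 probes differed by -0.22 to 0.47. Adgre1, whose product was also selected against, averaged 13.10 in both tissues with its brighter probe and was at 10.67 to 11.68 with the other. Ly6c2 and Ly6g were not analysed here.

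**Figure D1:**
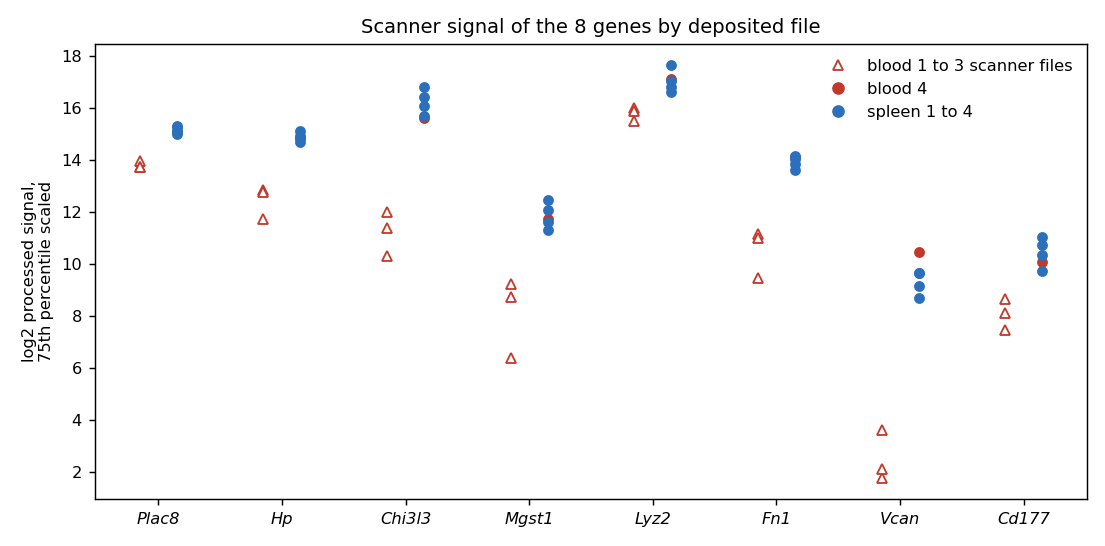
Log2 scanner signal (75th percentile scaled) of 1 probe per gene in each deposited scanner file, with the files labelled blood 1 to 3 as open triangles and blood 4 and the 4 spleen files as filled circles. The triangles lie below every circle for all 8 genes, from 1.77 to 3.64 against 8.70 to 10.49 for Vcan.

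The table left out bright measurements more often than dim ones. In the 5 arrays whose scanner file matches, 27.8% of the cells at a level of 14 or more were empty, against 1.70% of those between 6.8 and 10, and every empty cell fell on a spot with an outlier mark from the scanner software. Of the 128 cells of the 16 probes 22 were empty, and for the 12 of them in matching arrays it was the local background around the spot that was marked. Chi3l3 kept 1 of its 8 values, Plac8 and Lyz2 probe 2 kept 4, and Hp and Lyz2 probe 1 kept 5, and none of these probes had 3 values in each tissue. For those 12 cells the value was read back from the scanner's median spot signal through the relation between that signal and the table on the same array. Such values are called read-back here, and the setting was added after the data were examined. On held-out cells at a level of 14 or more, read-back values missed the table by a median of 0.00221 to 0.00282 per array and by at most 0.187 to 0.492. The largest misses exceed the read-back differences of Plac8 and Hp given below and come near that of Chi3l3.

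A total of 11 of the 16 probes, of the genes Mgst1, Fn1, Vcan and Cd177, had at least 3 values per tissue and reached the background level on at least 4 arrays, as did 25471 probes of the whole array. None of the 11 passed the adjusted threshold of 0.05 in limma's moderated test, nor did any of the 25471 (0.0% called). In other settings, too, no member passed, while over all probes 0.0353% did with a trend in the variance, 0.0275% and 0.00393% with a random and a fixed replicate block, and 0.00833%, 0.0126%, 0.00833% and 0.00422% without blood 1, blood 2, spleen 1 and spleen 2. With all scanner files the share was 0.017% at the 75th percentile, 0.0034% with a slide block, 0.0238% with normexp and 0.017% with quantile scaling. At an unadjusted p under 0.05 there were 2 of the 11, both Vcan and lower in spleen, and 1419 of all probes (5.57%, of which 2.56% lower and 3.01% higher). The mean was lower in spleen for 10 of the 11 probes, against 51.8% of all probes, and the median difference was -0.43 against -0.01 over all probes. For 3 of the 11 the spleen and blood values did not overlap, against 3.25% of all probes, and all 3 were lower in spleen, against 1.46%. With scanner signal scaled to the 75th percentile, 4.41% of all probes did not overlap. The 95% confidence interval lay within 2-fold for 4 of the 11 and for 51.9% of all probes. With 1 probe per gene the median was -0.30 and the values of all 4 genes overlapped, so that count rests on which probe is read. The 11 probes stem from 4 genes and are not independent. Each mouse gave both samples, but it is not stated that equal replicate numbers mark 1 mouse, so the test took the samples as unpaired, and its p-values reflect the spread between mice and arrays together. In such bulk samples fewer cells of a type and less RNA per cell cannot be told apart.

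Fibronectin RNA averaged about a log2 step of 0.5 lower in spleen with each of its 3 probes, and none of them passed. Fn1 probe 1 was 14.86, 14.39 and 14.18 in blood 1, 2 and 4, with no value in blood 3, and 14.29, 14.05, 13.76 and 13.65 in spleen 1 to 4. Only the highest spleen value reached into the range of blood. The means were 14.48 ± 0.35 (SD, n = 3) and 13.94 ± 0.29 (SD, n = 4), a difference of -0.54 ± 0.28 (SE), or 1.45-fold lower in spleen, with an adjusted p of 0.948 and a 95% confidence interval from -1.17 to 0.09. Fn1 probe 2 was 14.27 in blood 1 and 13.61, 13.63 and 13.67 in the other blood samples, and 13.43, 13.61, 13.43 and 12.73 in spleen. Here the highest spleen value, that of spleen 2, lay just below the lowest of blood, so the groups did not overlap (difference -0.50 ± 0.27 SE, adjusted p = 0.96). Fn1 probe 3 was 13.10 to 13.46 in blood and 12.58 to 12.63 in 3 spleen samples, with spleen 2 at 13.44, inside the range of blood.

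The 3 probes thus gave differences of -0.54, -0.50 and -0.49. Averaged over the probes, Fn1 was 14.19, 13.82 and 13.65 in blood 1, 2 and 4, while the spleen samples had 13.45, 13.70, 13.26 and 13.001, a difference of -0.53 ± 0.25 (SE) with an adjusted p of 0.929. Spleen 4 minus blood 4, the only pair known to share a slide, was -0.53 with probe 1. With the 5 matching columns alone, which hold 1 blood array, the difference was -0.24. Most platelet and megakaryocyte markers averaged lower in spleen. Of 12 tested, 10 were lower in spleen and 2 higher, with a median of -0.82, none past the adjusted threshold in limma and 4 at an unadjusted p under 0.05. Their summed level, on the log2 scale and over 11 genes with all values, was 12.32 to 13.42 in blood and 11.50 to 12.31 in spleen. Pf4, a platelet chemokine, was 9.33 ± 1.97 (SD, n = 4) in blood against 6.67 ± 0.37 (SD, n = 4) in spleen (adjusted p = 0.69), and below the background level on 4 of the 8 arrays. The part of platelet RNA in the Fn1 and Vcan differences was not tested.

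Versican RNA was lower on average in spleen with all 5 probes, and the size differed between them. Vcan probe 4 gave the widest separation, with 8.83, 8.58, 9.24 and 8.05 in blood and 6.43, 6.35, 7.72 and 7.45 in spleen. No spleen value reached the blood range, and spleen 1 and spleen 2 were below the background level. The difference was -1.69 ± 0.38 (SE), from 8.67 ± 0.50 (SD, n = 4) to 6.99 ± 0.70 (SD, n = 4), with an adjusted p of 0.467 in limma. The exact two-sided permutation test gave its smallest possible p, 0.0286, as it did for Fn1 probe 2 and Mgst1 probe 2. With 4 values per tissue that p follows from the lack of overlap itself, so it is no separate line of support. Vcan probe 5 was 6.92, 6.63, 8.74 and 7.45 in blood and 6.92, 6.41, 6.31 and 6.24 in spleen, so both tissues lay close to background and blood 3 stood highest (difference -0.96 ± 0.43 SE, adjusted p = 0.896). Of the 5 matching arrays, the scanner software found probe 4 well above background on 3 and probe 5 on 2, and the other 14 probes of the 8 genes on all 5.

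The brighter versican probes showed smaller differences. Vcan probe 1 was 9.65, 8.85, 10.21 and 10.50 in blood and 9.24, 9.62, 9.76 and 8.88 in spleen, and the groups overlapped widely (difference -0.43 ± 0.37 SE). Vcan probe 2 was 8.76 to 9.38 in blood and 8.35 to 8.84 in spleen, and probe 3 was 7.64 to 8.20 and 7.61 to 8.31. Their differences were -0.36 ± 0.24 and -0.18 ± 0.24 (SE). The adjusted p of probes 1, 2 and 3 was 1 after rounding. The mean over the 5 probes was 8.36, 8.20, 9.15 and 8.59 in blood and 7.73, 7.69, 8.05 and 7.94 in spleen, which did not overlap, with a difference of -0.72 ± 0.24 (SE), a 95% confidence interval from -1.26 to -0.19 and an adjusted p of 0.729. That separation rests on probe 4: without it the mean of the other 4 probes was 8.24, 8.11, 9.13 and 8.73 in blood against 8.06, 8.03, 8.13 and 8.07 in spleen, where spleen 3 reached above blood 2. The difference was then -0.48 ± 0.25 (SE), with an adjusted p of 0.96 in limma, in a setting added after the data were examined. With probe 1, spleen 4 minus blood 4 was -1.62 and the 5 matching columns gave -1.13, while leaving out each sample in turn gave -0.75 to -0.20.

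**Figure D2:**
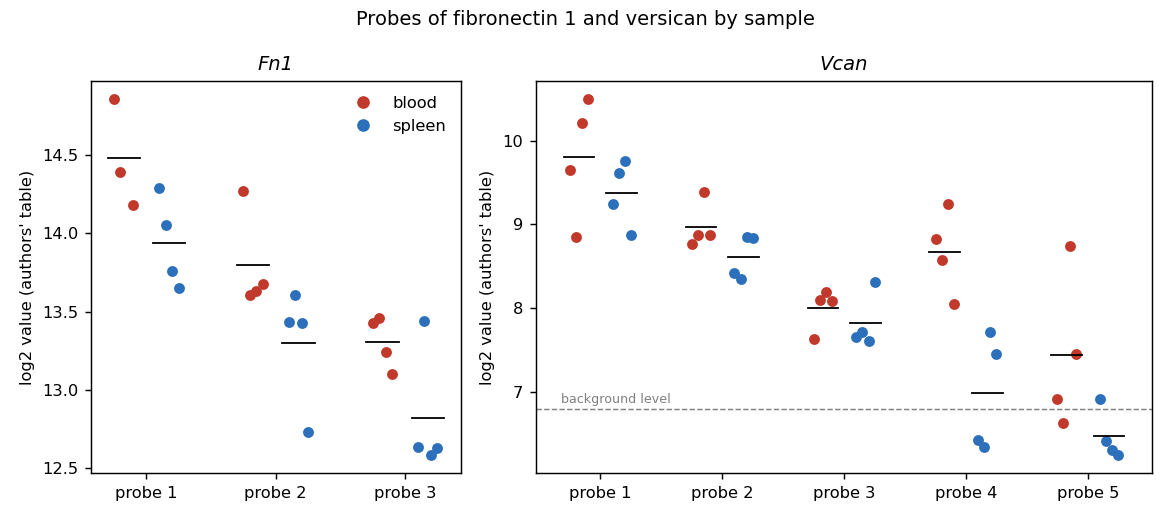
Log2 values of the 3 Fn1 and 5 Vcan probes in each blood (red) and spleen (blue) sample, with the mean of each tissue as a line and the background level of 6.8 as a dashed line. The Fn1 probes shift by a like amount (-0.54, -0.50 and -0.49), while the Vcan probes range from -1.69 for probe 4 to -0.18 for probe 3.

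Genes that bind or process fibronectin and versican lay on both sides. Of 13 tested, 6 were higher and 7 lower in spleen, with a median of -0.04, and 0 passed in limma, also at an unadjusted p under 0.05. Itga4, a subunit of the fibronectin receptor VLA-4, differed by -0.28 ± 0.23 (SE), Itga5, a subunit of the classical fibronectin receptor, by -0.55 ± 0.44 and Tgm2, a transglutaminase that cross-links fibronectin, by 0.35 ± 0.35.

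Lysozyme RNA was very bright in both tissues. Lyz2 probe 1 was 17.18 and 17.39 in blood 3 and blood 4 and 17.88, 16.75 and 16.75 in spleen 2, 3 and 4. The value of 17.88 is the top of every column of the table, so a value there can only be read as the brightest on its array. The scanner signal of spleen 1 lay beyond the relation used for reading back, so it can only be placed at that top too. On the table's scale spleen 1 and spleen 2 were at that top and spleen 3 and spleen 4 below both blood values. Percentile-scaled scanner signal ordered the matching arrays differently, with 17.14 in blood 4 and 16.82, 17.05, 17.69 and 16.63 in spleen 1 to 4. The order of the samples thus depended on the source of the values, and no difference is given for this probe. The 2 sources differ in the scaling and in the spot signal used, median or processed. Lyz2 probe 2 was 15.01 in blood 3 and 14.48, 14.70 and 14.53 in spleen 1, 3 and 4, and the read-back values were 14.99 in blood 4 and 15.27 in spleen 2, which put spleen 2 above both blood values (difference -0.26 ± 0.32 SE). Lyz1, a near copy of Lyz2 whose transcripts a probe may not tell apart, had 1 blood value, 15.49, and spleen values of 15.52 and 15.40.

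Chi3l3 had a single value in the table, 15.68 in blood 4. The read-back values in spleen 1 to 4 were 16.99, 16.22, 16.12 and 16.21, all above it. The spleen mean was 0.71 above that 1 blood value, and 0.53 within the slide shared by blood 4 and spleen 4. With 1 blood sample the difference has no replicate check and no test. Chi3l4, a near copy of Chi3l3, was 12.83, 10.64, 12.25 and 11.18 in blood and 12.02, 11.59, 12.69 and 12.43 in spleen, a difference of 0.45 ± 0.47 (SE) within overlapping groups. Whether either probe also binds the other transcript was not tested.

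Among the lysozyme and chitinase-like relatives, 2 of 4 tested were higher and 2 lower, and 0 passed in limma, with 1 at an unadjusted p under 0.05. That 1 was Chi3l1 (Chil1), a chitinase-like protein of neutrophil granules and macrophages, which was 6.54 ± 0.21 (SD, n = 4) in blood against 9.44 ± 1.06 (SD, n = 4) in spleen, with an adjusted p of 0.162. Each of its 4 blood values was under the background level. Chit1, the chitinase of macrophages, differed by -0.31 ± 0.25 (SE).

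Haptoglobin RNA averaged nearly the same in both tissues. Hp was 14.97 and 14.90 in blood 1 and blood 3 and 15.24, 15.02 and 14.56 in spleen 1, 2 and 3, and the read-back values were 14.86 in blood 4 and 14.92 in spleen 4. The spleen samples lay on both sides of the blood samples. With the read-back cells the difference was 0.02 ± 0.24 (SE, 3 blood and 4 spleen values, adjusted p of 1 after rounding), with a 95% confidence interval from -0.53 to 0.58, inside 2-fold either way. Of the haem-handling genes tested, 4 of 7 were higher and 3 lower, none past the threshold in limma and 1 at an unadjusted p under 0.05. That 1 was Slc40a1, the iron exporter ferroportin, which was 6.78 ± 0.58 (SD, n = 4) in blood against 8.95 ± 0.24 (SD, n = 3) in spleen (adjusted p = 0.198), and below the background level on 3 blood arrays. Slc11a1, a metal transporter of phagosomes, differed by -0.28 ± 0.31 (SE), and Lrp1, a receptor that takes up haem bound to haemopexin, by 0.22 ± 0.27. Slc40a1 also stands in the red pulp macrophage list, of which 7 of 9 tested were higher and 2 lower, none past the threshold in limma and 4 at an unadjusted p under 0.05. Vcam1, an adhesion molecule, and Spic, a transcription factor of these macrophages, differed by 2.31 ± 0.37 and 1.48 ± 0.43 (SE) without overlap (adjusted p = 0.162 and 0.687), Vcam1 from below background on 3 blood arrays. The summed level, in which the bright Adgre1 and Hmox1 weigh most, was 13.81 to 14.20 in blood and 13.85 to 14.23 in spleen.

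Plac8 RNA did not separate the tissues either. It was 15.13 and 14.995 in blood 2 and blood 3 and 14.81 and 15.05 in spleen 3 and spleen 4, and the read-back values were 14.98 in blood 4 and 15.20 and 15.69 in spleen 1 and spleen 2. Spleen samples were both the lowest and the highest. The table's own values gave -0.13, and the read-back cells turned the sign to 0.15 ± 0.27 (SE, 3 blood and 4 spleen values, adjusted p of 1 after rounding, 95% confidence interval -0.46 to 0.77).

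**Figure D3:**
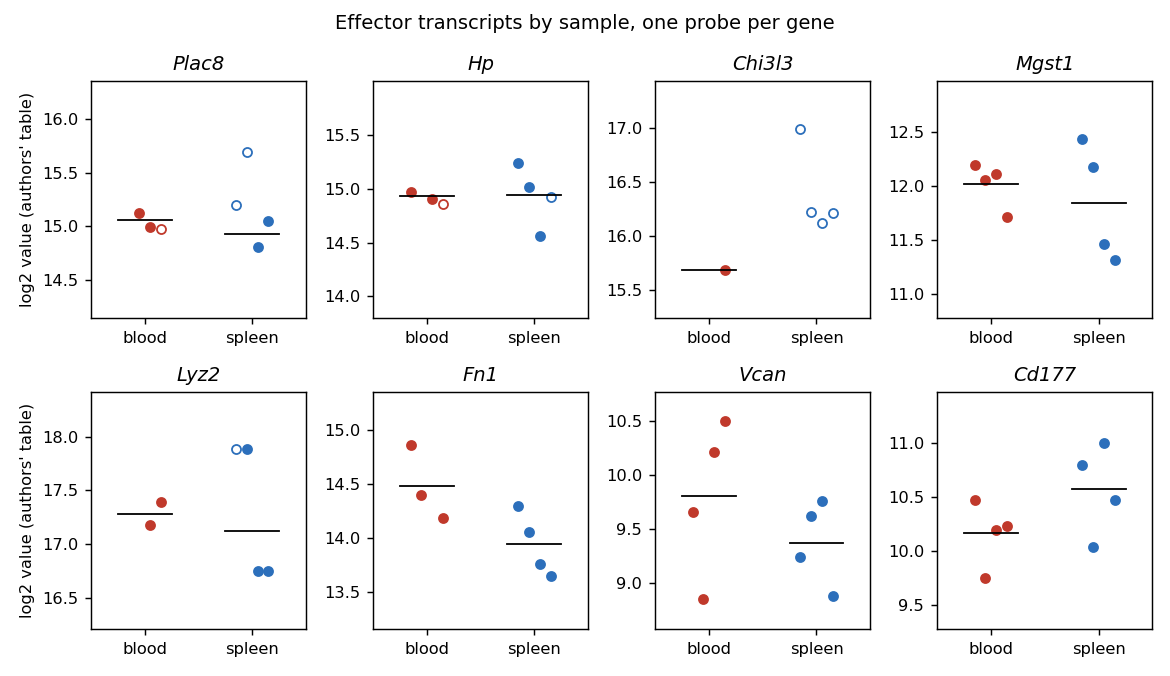
Log2 value of each sample for 1 probe per gene, blood in red and spleen in blue, all panels spanning the same range of 2.2 log2 units. Filled points are in the authors' table, open points were read back from the scanner files, and lines are means of filled points; Chi3l3 has 1 filled point, 15.68, below its 4 open ones, and the open Lyz2 point at 17.88 is the top of the table.

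Mgst1 had probes that ranked the samples differently. Mgst1 probe 1 was 12.19, 12.05, 12.11 and 11.71 in blood and 12.44, 12.18, 11.46 and 11.31 in spleen. Spleen 1 and 2 lay near or above the top of the blood range and spleen 3 and 4 below its bottom, and the difference was -0.17 ± 0.29 (SE, 95% confidence interval -0.83 to 0.49). Mgst1 probe 2 was 11.64, 11.57, 11.82 and 11.91 in blood and 11.44, 11.25, 11.56 and 11.10 in spleen, where no spleen value reached the blood range, although spleen 3 lay just below it. Its difference was -0.39 ± 0.21 (SE) with an adjusted p of 0.954. The mean of both probes was 11.81 to 11.96 in blood and 11.20 to 11.94 in spleen (difference -0.28 ± 0.20 SE, adjusted p of 1 after rounding). The sign of probe 1 was not stable: it was 0.01 without spleen 4 and 0.13 with the 5 matching columns alone.

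Of the other glutathione enzymes and relatives of Mgst1, 6 of 9 tested were higher in spleen and 3 lower, with a median of 0.01; 0 passed in limma and 1 had an unadjusted p under 0.05. That 1 was Mgst2, a microsomal relative, at 7.42 ± 1.12 (SD, n = 4) in blood against 9.22 ± 1.17 (SD, n = 4) in spleen (adjusted p = 0.785). Alox5ap, the partner of 5-lipoxygenase in leukotriene synthesis, differed by -0.43 ± 0.26 (SE), and Gsr, which regenerates glutathione, by 0.42 ± 0.26.

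Cd177 was the only gene with a tested probe whose mean was higher in spleen. It was 10.47, 9.75, 10.19 and 10.23 in blood and 10.79, 10.03, 11.001 and 10.47 in spleen. Spleen 1 and 3 stood above every blood sample, while spleen 2 lay within the blood range and spleen 4 level with its top. The means were 10.16 ± 0.30 (SD, n = 4) and 10.57 ± 0.42 (SD, n = 4), a difference of 0.41 ± 0.28 (SE), with a 95% confidence interval from -0.20 to 1.03 and an adjusted p of 1 after rounding. It stayed between 0.27 and 0.59 with each sample left out, was 0.24 within the shared slide and 0.34 with the 5 matching columns. With the replicate number as a fixed block it was 0.41 ± 0.20 (SE, adjusted p = 0.815 in limma). Cd177 was higher in spleen in each same-numbered pair, though it is not stated that such a pair marks 1 mouse. Of its partners, Itgam differed by 0.00 ± 0.20 (SE), Itgb2 by -0.18 ± 0.23 and Prtn3, which encodes proteinase 3, by 0.13 ± 0.23, and Pecam1 was 7.60 ± 0.39 (SD, n = 4) in blood against 7.09 ± 0.08 (SD, n = 4) in spleen (adjusted p = 0.937). Of these 4 genes 2 were higher and 2 lower, none past the threshold in limma or at an unadjusted p under 0.05.

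**Figure D4:**
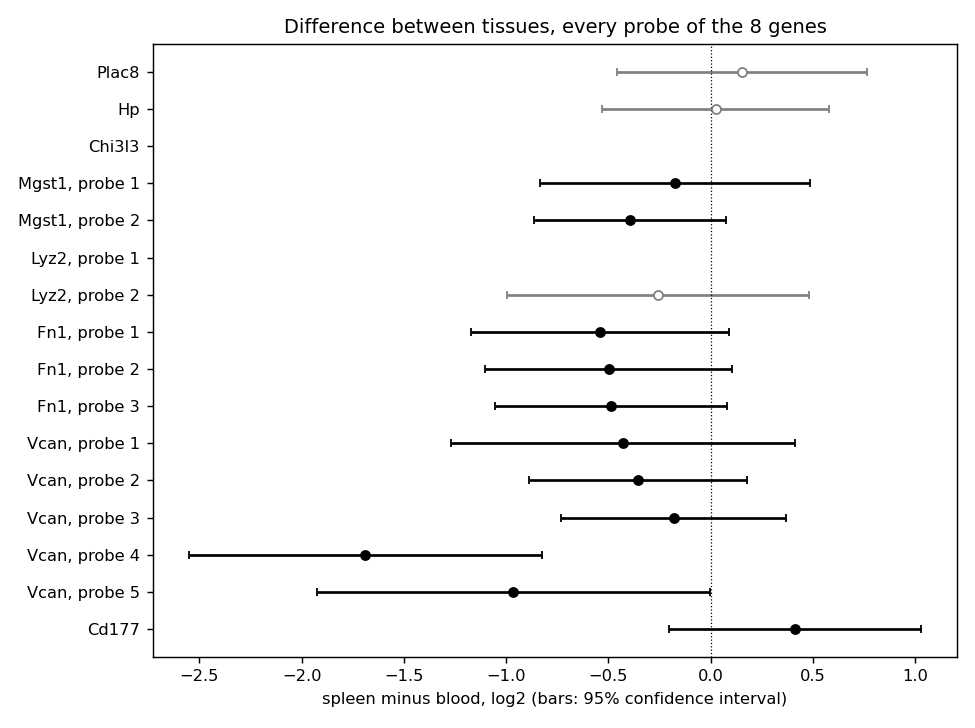
Spleen minus blood on the log2 scale for every probe, in the order Plac8 to Cd177, with 95% confidence intervals from limma. Black points come from the authors' table and open grey points include read-back cells; Chi3l3, with 1 blood value, and Lyz2 probe 1, with values at the top of the table, have none. The intervals of Vcan probes 4 and 5 alone exclude 0, and the Cd177 point, 0.41, lies to the right of 0.

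Neutrophil markers averaged higher in spleen. Of 19 tested neutrophil genes 17 were higher and 2 lower in spleen, with a median of 1.30, none past the adjusted threshold in limma and 12 at an unadjusted p under 0.05. Ltf, Camp and Lcn2, genes of neutrophil granule proteins, differed by 5.54 ± 0.65, 5.57 ± 0.71 and 3.97 ± 0.45 (SE), each with an adjusted p of 0.0651. The summed level of the 19 genes on the log2 scale was 13.08 to 13.70 in blood and 15.76 to 17.15 in spleen, and its order followed that of Cd177 only in part. Both were highest in spleen 3 and lowest within their tissue in blood 2 and spleen 2. Blood 1, with the highest Cd177 of blood, had a sum of 13.21, under the 13.70 of blood 3 and the 13.67 of blood 4, and spleen 4 had the second highest sum, 16.54, but the third highest Cd177 of spleen. Lcn2 was below the background level on 3 blood arrays. With read-back cells, Hp differed by 0.02 ± 0.24 (SE). The part of neutrophil RNA in the Cd177 and Chi3l3 values was not tested.

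Other genes of the Ly-6C-high state mostly averaged lower in spleen. Of 11 tested, 9 had the lower mean in spleen and 2 the higher, at a median of -0.16, while the summed level of the 9 genes with all values was 14.96 to 15.34 in blood and 15.06 to 15.38 in spleen; 0 passed in limma and also 0 at an unadjusted p under 0.05. Ccr2, the chemokine receptor for exit from the marrow, was 14.10 ± 0.26 (SD, n = 4) in blood against 13.68 ± 0.23 (SD, n = 3) in spleen and its groups did not overlap (adjusted p = 0.991). Ifitm6, an interferon-induced membrane protein gene, was 0.46 ± 0.25 (SE) higher on average, and Emb, an adhesion molecule gene, differed by -0.33 ± 0.27. Of the transcription factors and growth factor receptors of myeloid cells, 7 of 10 tested were higher and 3 lower, none past the threshold in limma and 2 at an unadjusted p under 0.05. These were Myb, a factor of immature cells, at 0.78 ± 0.24 (SE, adjusted p = 0.69), and Cebpa, a factor that drives granulocyte and monocyte development, at 0.74 ± 0.27 (SE, adjusted p = 0.787).

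Markers of the other cells a sort could hold gave these counts. Cell division genes were higher for 11 of 12 tested, with a median of 1.49 and 9 at an unadjusted p under 0.05, and markers of Ly-6C-low monocytes for 8 of 10, with a median of 0.42 and 3 at that level. B cell genes were higher for 5 of 7, T and NK cell genes for 5 of 5, dendritic cell genes for 5 of 7, erythroid genes for 1 of 6 and eosinophil and basophil genes for 1 of 5. The B cell median was 0.01, and the summed level was 11.90 to 12.41 in blood and 11.21 to 12.01 in spleen. The 1 B cell gene at that level, Igh-6, differed by -0.73. For T and NK cells the median was 0.45 with 0 at that level, and 4 of 12 listed were below background on 7 or 8 arrays. The other 3 medians were 0.21, -0.28 and -0.06, with 1, 1 and 0 at that level. No gene of any list passed the adjusted threshold in limma.

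**Figure D5:**
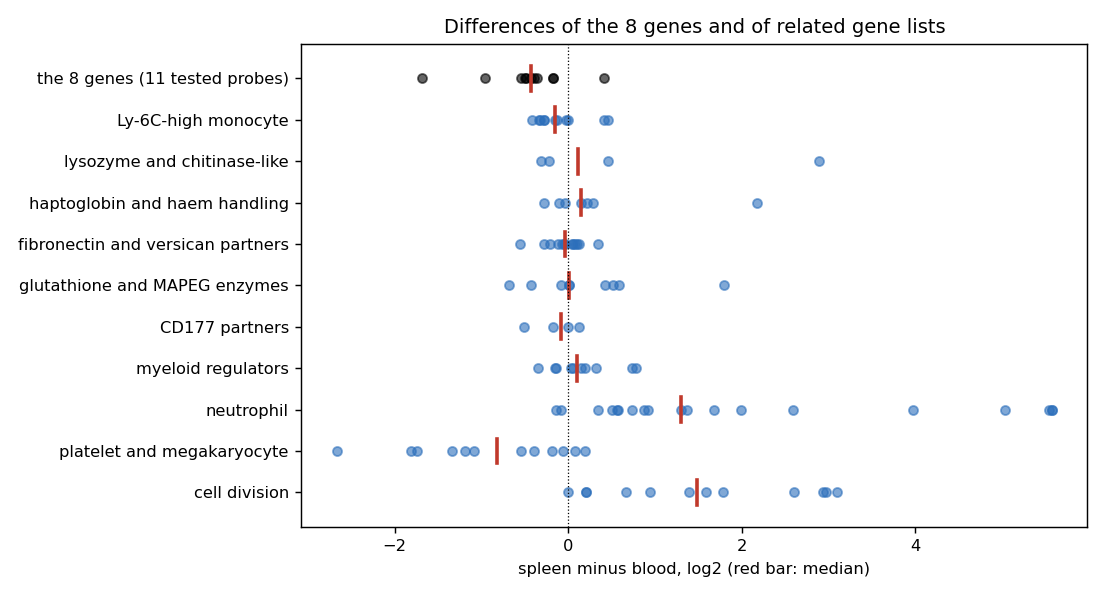
Spleen minus blood on the log2 scale for the 11 tested probes (black) and for each tested gene of the related lists (blue), with the median of each row as a red bar. The 11 probes cover 4 of the 8 genes, Mgst1, Fn1, Vcan and Cd177. The medians are -0.43 for the 11 probes (-0.30 with 1 probe for each of these 4 genes) and, with 1 probe per gene, -0.16 for other Ly-6C-high genes. They are 1.30 for neutrophil, -0.82 for platelet and megakaryocyte and 1.49 for cell division genes.

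Genes with patterns like those of the members were sought for the 4 members whose brightest tested probe spanned at least 1 log2 unit. Likeness was the root mean square difference between log2 values, each centred on its own mean, over 8 arrays (7 for Fn1). Nearest to Mgst1 were Map4 (0.09), Setd1b (0.13) and Ptpro (0.13), and nearest to Fn1 were Klra2 (0.10), Trim23 (0.11) and Ttc30b (0.11). Nearest to Vcan were Bhlhe41 (0.11), Oaz1 (0.17) and Uimc1 (0.18), and nearest to Cd177 were Ppp1cc (0.10), Gramd1b (0.13) and Fam241b (0.13). No gene was among the nearest of more than 1 member.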

How the data were processed

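The authors' deposited values are 1 log2 value per probe and sample; per the submitters' processing notes limma was used, and its version, background correction and normalization are not given in the sources used here. All columns have the same maximum, 17.88, and medians of 7.308 to 7.311, and in 5 of them the probes rank as the scanner's median signal does. The deposited scanner files hold spot intensity values, per the file headers from Agilent Feature Extraction 9.5.1.1, in 1 colour. These log2 values were used as deposited, with the scanner files as alternatives, since 3 blood scanner files hold other arrays. The background level, 6.8, is the lowest from which at least 95% of probes in every step of 0.1 were well above background on the matching arrays, by the scanner's own test. Probes were kept at this level or above on at least 4 arrays with at least 3 values per tissue, and each probe was tested on its own with lmFit and eBayes (limma 3.58.1, R 4.3.3), with Benjamini-Hochberg adjustment over all 25471 probes. The fit was tested on simulated data. A gene was represented by its brightest tested probe, by the mean over all arrays. Genes of the lists were found by the gene name in the scanner files or by a symbol. Symbols came from accessions matched to RefSeq (GRCm38.p6), which named 55.7% of probes. Where no accession matched, the gene name was used, as a symbol or as a synonym of a single gene. The members and lists were chosen with earlier results of these data known. Alternatives were the replicate block, filters, probe summaries, variance models, array weights, each sample left out, and scanner files with 75th percentile, normexp (offset 50) or quantile scaling and a slide block. The named genes are the members, the genes most like them by the stated rule, near copies, sort antigens and at most the 3 genes of smallest p per list. Read-back cells, a minimum of 2 values per tissue and the Vcan mean without probe 4 were settings added after seeing the data. Blood and spleen came from the same 4 mice, but that equal replicate numbers mark 1 mouse is not stated. Deviations of same-numbered samples correlated by 0.0719 to 0.119, and those of other pairs by at most 0.0293. The same-numbered values were not over 0.1 in every pair, so the samples were compared as unpaired, with the block as an alternative. The number of arrays limits the precision.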

Additional observations from a re-analysis of the deposited data

Results flagged for a closer look

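A sample stood far from the other 3 of its tissue in 3 of the 21 sets of 4 values examined, by Dixon's 95% critical value, which sets without any outlying sample also pass at times. Fn1 probe 2 was 14.27 in blood 1 and 13.61 to 13.67 in the other blood samples. Fn1 probe 3 was 13.44 in spleen 2 and 12.58 to 12.63 in the other spleen samples. Vcan probe 3 was 8.31 in spleen 4 and 7.61 to 7.72 in the others.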

How the results depend on the processing

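No member probe passed the adjusted threshold in any setting run. Over all probes the count past it was 0, and rose to 9 when the variance followed a trend, fitted robustly, to 7 with a random replicate block, to 1 with a fixed replicate block, and 0 to 3 with 1 sample left out (2 without blood 1, 3 without blood 2, 2 without spleen 1 and 1 without spleen 2). The 4 settings with all scanner files include the 3 files that hold other arrays, so they do not show an effect of processing alone. There the count was 5 at the 75th percentile, 1 with the slide as a block, 7 with normexp and 5 with quantile scaling. The median over the members, -0.30, became 2.19, 2.16, 2.01 and 1.92, Fn1 turned to 2.49, 2.29, 2.50 and 2.41, Vcan to 4.80, 4.16, 2.13 and 2.07, and Mgst1 to 2.83, 2.82, 2.53 and 2.49, in that order. Mgst1 also turned to 0.11 and 0.13 with the 5 matching scanner files and columns and ranged from -0.369 to 0.0062 with 1 sample left out, positive without spleen 4; the cause was not tested. The median ranged from -0.40 to -0.11 with 1 sample left out, and was -0.07 with read-back cells, 0.02 with read-back cells at 2 values per tissue (which include Lyz2 values at the top of the table) and 0.08 with the 5 matching scanner files. These medians and counts cover different genes: 4 as reported, 8 in settings with scanner files, 5 with the matching columns, 6 or 7 with read-back cells, and 3 without blood 1, 2 or 4. The number of members without overlap, 0, became 1, 1, 3 and 2 in the same order of scanner settings, 2 for the 5 matching files, 1 for the 5 matching columns, 1 with the mean over probes (Vcan), and 0 to 1 with 1 sample left out (1 without spleen 1). Over all probes the share was 3.25% as reported and 4.41% at the 75th percentile. It is not given for the other settings, so their counts cannot be read as a gain in separation. In the matching files and columns blood 4 alone stands for blood, which makes overlap less likely for any probe. Same-numbered samples correlated best with each other, and the replicate block gave Fn1 as -0.53 (random) and -0.48 (fixed) with no other call changed among the members. Fn1 probe 1 could not be tested without blood 1, 2 or 4, when fewer than 3 blood values remained.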
